A study of Rattus norvegicus with 6 samples.

Results

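Genes of matrix proteases, their inhibitors and the enzymes that cross-link matrix were followed through 6 RNA sequencing libraries of cultured rat hippocampal cells. The set holds 56 of the 37183 symbols measured, taken by symbol alone: 24 matrix metalloproteinase rows (Mmp), 4 tissue inhibitors of metalloproteinases (Timp), 18 Adamts proteases, 5 Adamts-like genes and 5 lysyl oxidases (Lox and Loxl1 to Loxl4). The series set out to examine how insulin exposure affects lipid metabolism in the brain. The 6 groups had 1 library each: primary hippocampal astrocytes given 200 nM insulin for 6 h or for 12 h, with their control, and primary hippocampal neurons given the same dose for 6 h or for 12 h, with their control. Controls are named saline in the titles and untreated at 0 min in the characteristics. All cultures had received changed medium 4 h before treatment, which held 5 mM glucose and 2% FBS in astrocyte dishes and neither serum nor insulin in neuron dishes, so time in the new medium differed between insulin and control libraries. How many animals or wells went into a library is not given in the labels.

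Matrix metalloproteinases are zinc proteases that are made as inactive precursors and cut collagens, laminins, proteoglycans and cell surface proteins, and Timp proteins block them by binding the active site. Adamts proteases are secreted relatives, some of which cut the lecticans that fill the spaces between brain cells, while Adamts-like proteins share their ancillary domains but lack the protease domain. Lysyl oxidases act after secretion and form the cross-links that stabilise collagen and elastin fibres. In the brain these enzymes are known from perineuronal nets, the vascular basement membrane and the glial response to injury.

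Values are fragments scaled to transcript length and library size (FPKM), a level per length, quantile-normalised across the 6 libraries by the authors. Differences are log2 differences on the deposited scale. Genes were compared where neither library was blank and one or both reached 1 FPKM, and "rose", "fell", "higher by the 2-fold rule" and the like mark a difference of 1 or more on the log2 scale, a 2-fold change. With 1 library per group no difference could be set against replicate spread, and no test was made. The background beside each count is the percentage of all genes in the same comparison that passed the same rule.

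The cell labels were checked first against marker genes. Summed FPKM of 11 astrocyte markers was 55.3 to 62.6 in the astrocyte-labelled libraries and 349 to 388 in the neuron-labelled libraries. Of these markers, 10 were higher in all neuron-labelled libraries. Fgfr3 alone had the other order, at 22.1 to 31.0 FPKM in the astrocyte-labelled libraries and 3.70 to 4.47 FPKM in the neuron-labelled ones. Summed FPKM of 6 smooth muscle and pericyte markers was 425 to 504 in the astrocyte-labelled libraries and 4.52 to 10.6 in the neuron-labelled libraries. Tagln gave 353 to 417 FPKM of the astrocyte-labelled sum, and Pdgfrb was at 2.88 to 2.95 FPKM there. However, the mature smooth muscle gene Myh11 reached no more than 0.00875 FPKM in any library, and Rgs5 of the same list no more than 0.00798 FPKM. The 5 fibroblast markers found summed to 66.5 to 86.0 FPKM in the astrocyte-labelled libraries and 2.28 to 2.47 FPKM in the neuron-labelled libraries. In the astrocyte-labelled libraries Col1a1 (44.2 to 60.4 FPKM) and Col3a1 (17.1 to 24.8 FPKM) made up nearly all of it. Lum was at 0.514 to 0.787 FPKM there and Dcn at 0.0622 to 0.0738 FPKM. In the neuron-labelled libraries Pdgfra, also a marker of oligodendrocyte precursors, made up nearly all of it, and Dcn and Lum were blank in the control. The 10 neuron markers summed to 3.84 to 4.88 FPKM in the astrocyte-labelled libraries and 62.1 to 71.3 FPKM in the neuron-labelled libraries, and 8 oligodendrocyte lineage markers to 3.62 to 3.95 FPKM in the astrocyte-labelled libraries and 111 to 118 FPKM in the neuron-labelled libraries. Of the remaining lists, 5 endothelial markers summed to 0.351 to 0.547 FPKM in the astrocyte-labelled libraries and 0.0103 to 0.0263 FPKM in the neuron-labelled libraries, and 3 ependymal markers to 0.856 to 1.04 FPKM in the astrocyte-labelled libraries and 2.03 to 3.13 FPKM in the neuron-labelled ones. Of the 6 microglial markers Tmem119 stood alone, at 4.09 to 6.42 FPKM in the astrocyte-labelled libraries, and all 6 summed to 0.117 to 0.265 FPKM in the neuron-labelled ones. The libraries are therefore called by their labels only. What part these other cells have in any level below was not tested, and in bulk RNA fewer cells of a type and less RNA per cell cannot be told apart.

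More members reached 1 FPKM in the astrocyte-labelled cultures, 12 to 14 of the 56 per library, against 4 or 5 in the neuron-labelled cultures. Of all 37183 symbols, 5781 to 6035 reached it in the astrocyte-labelled libraries and 6042 to 6447 in the neuron-labelled ones. Quantile normalisation holds this share of the symbols with a value nearly equal between libraries. These all-gene counts therefore follow the number with a value, 22891 to 23898 in the astrocyte-labelled libraries and 23927 to 25528 in the neuron-labelled ones. In all, 17 members reached 1 FPKM in at least 1 library: 6 Mmp genes, 2 Timp genes, 2 Adamts genes, 2 Adamts-like genes and all 5 lysyl oxidases. The other 39 stayed below it everywhere, with highest values up to 0.871 FPKM. Of the 56, 44 had a value in every library, 10 were blank in some libraries and 2, Mmp1b and Mmp8, were blank in all.

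**Figure D1:**
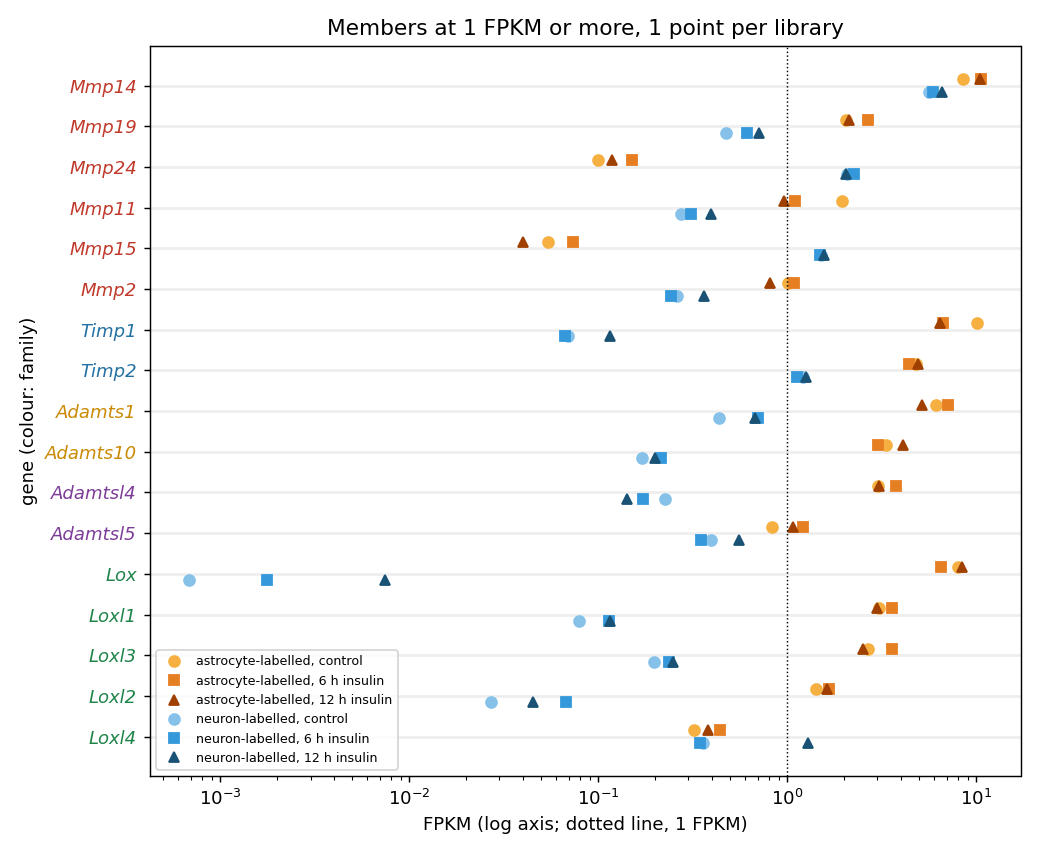
FPKM of the 17 members that reached 1 FPKM (log axis, 1 point per library, 6 libraries, no replicates and so no error bars), with gene names coloured by family and the dotted line at 1 FPKM. Astrocyte-labelled points lie right of all neuron-labelled points for 14 genes, the reverse holds for Mmp24 and Mmp15, and Loxl4 overlaps. Under the same limit 30.6% of all genes lay wholly higher in the astrocyte-labelled libraries and 41.6% wholly higher in the neuron-labelled ones.

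Among the proteases, Mmp14, the membrane-anchored collagenase that also activates proMmp2, was the most abundant Mmp gene in all 6 libraries. It was at 8.53, 10.6 and 10.5 FPKM in the astrocyte-labelled control, 6 h and 12 h libraries, and at 5.65, 5.93 and 6.55 FPKM in the neuron-labelled control, 6 h and 12 h libraries. The lowest astrocyte-labelled library was thus above the highest neuron-labelled one, but the control libraries differed by only 0.59 on the log2 scale, short of 2-fold. Mmp14 alone made up 57.1% to 66.0% of the summed Mmp FPKM in the astrocyte-labelled libraries and 48.7% to 51.4% in the neuron-labelled libraries.

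The other Mmp genes at 1 FPKM divided by culture. Mmp19, a secreted protease of broad matrix specificity, was at 2.04, 2.66 and 2.13 FPKM in the astrocyte-labelled control, 6 h and 12 h libraries, and at 0.472, 0.609 and 0.706 FPKM in the neuron-labelled ones. Mmp2, gelatinase A, which cuts denatured collagen and basement membrane collagen, was at 1.01, 1.09 and 0.815 FPKM in the astrocyte-labelled libraries and at 0.261, 0.242 and 0.363 FPKM in the neuron-labelled ones. In both genes all astrocyte-labelled values lay above all neuron-labelled ones, by 2.11 for Mmp19 and 1.95 for Mmp2 between the controls on the log2 scale, though Mmp2 differed by only 0.67 on a log2(FPKM + 1) scale.

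Another 2 were membrane-type proteases with the opposite order. Mmp24, known as a neural protease that processes N-cadherin, was at 0.0996, 0.151 and 0.118 FPKM in the astrocyte-labelled control, 6 h and 12 h libraries, and at 2.08, 2.25 and 2.06 FPKM in the neuron-labelled ones. Mmp15 was at 0.0545, 0.0737 and 0.0399 FPKM in the astrocyte-labelled libraries and at 1.51, 1.49 and 1.56 FPKM in the neuron-labelled ones. The control differences were -4.38 and -4.79 on the log2 scale, and no library of one culture approached the other. Below 1 FPKM, and chosen after their values were seen, the membrane-type genes Mmp16 and Mmp17 (2 rows) had the same order in all 6 libraries. Mmp16 was at 0.0929 to 0.121 FPKM in the astrocyte-labelled libraries and 0.271 to 0.420 FPKM in the neuron-labelled libraries, and the higher Mmp17 row at 0.0341 to 0.0646 FPKM in the astrocyte-labelled libraries and 0.429 to 0.558 FPKM in the neuron-labelled ones. Mmp25, the remaining membrane-type gene below 1 FPKM, had the other order in the controls, at 0.0141 FPKM in the astrocyte-labelled one and 0.00642 FPKM in the neuron-labelled one, and was blank in the neuron-labelled 12 h library. Mmp24 overlaps the gene Mmp24os in the RefSeq annotation, and whether the authors counted reads by strand is not given in the sources used here.

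A run of 10 Mmp genes, chosen after its values were seen, was low throughout. Mmp7, Mmp20, Mmp27, Mmp8, Mmp10, Mmp1, Mmp3, Mmp1b, Mmp12 and Mmp13 lie side by side on rat chromosome 8 with no other protein-coding gene between them in RefSeq (build GRCr8). They include the secreted collagenases, macrophage elastase and, apart from Mmp11, the stromelysins. The highest value of any of them in any library was 0.156 FPKM, that of the collagenase gene Mmp1 in the astrocyte-labelled 12 h library. Mmp1 was at 0.131, 0.138 and 0.156 FPKM in the astrocyte-labelled control, 6 h and 12 h libraries and at 0.0318, 0.0790 and 0.0772 FPKM in the neuron-labelled ones. Only Mmp1 and Mmp3 had a value in every library, and reads of these similar genes could have been split between neighbours in the authors' counting.

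The upstream sequences of this run are shown because 6 of its 10 genes carry the same 7-base motif at a like distance from their start. TGAGTCA, the binding motif of the AP-1 transcription factors, was sought on both strands in the 250 bases before each start. It was found in 6 of the 10 genes of the run, in 0 of the 32 other members with a promoter in the RefSeq table, and in 4.42% of all 27457 genes there. TATAAA, sought in the same way, was found in 8 of the 10, in 6 of the 32 and in 14.1% of all genes. The matches are letters in a window and not shown to be bound in these cells, and these neighbouring genes are related copies. The 100 bases before the start of the 6 genes follow in RefSeq sequence (build GRCr8), 5′ to 3′ on the gene's strand, with either motif in capitals. In Mmp13 the AP-1 motif is read on the opposite strand. The same stretch of the abundant inhibitor gene Timp1, where neither motif was found, closes the group.
Mmp13, chr8:12782729-12782828, plus strand: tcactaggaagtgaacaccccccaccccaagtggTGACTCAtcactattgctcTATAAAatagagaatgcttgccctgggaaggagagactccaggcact
Mmp12, chr8:12866552-12866651, plus strand: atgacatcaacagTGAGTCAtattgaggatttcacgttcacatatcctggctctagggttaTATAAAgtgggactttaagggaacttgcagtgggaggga
Mmp3, chr8:12925181-12925280, plus strand: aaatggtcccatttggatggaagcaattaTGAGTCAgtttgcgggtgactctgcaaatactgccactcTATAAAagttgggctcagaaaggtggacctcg
Mmp1, chr8:12943353-12943452, plus strand: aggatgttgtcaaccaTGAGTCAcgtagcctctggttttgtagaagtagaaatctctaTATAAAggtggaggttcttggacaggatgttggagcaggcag
Mmp10, chr8:12974607-12974706, plus strand: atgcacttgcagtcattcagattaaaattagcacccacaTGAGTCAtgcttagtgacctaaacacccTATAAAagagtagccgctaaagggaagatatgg
Mmp7, chr8:13132943-13133042, plus strand: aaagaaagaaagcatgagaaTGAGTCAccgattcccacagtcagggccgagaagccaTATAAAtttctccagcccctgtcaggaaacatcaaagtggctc
Timp1, chrX:3771123-3771222, minus strand: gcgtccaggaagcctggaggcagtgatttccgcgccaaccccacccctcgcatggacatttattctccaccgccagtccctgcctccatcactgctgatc
The first base of the AP-1 motif lies between -87 (Mmp12) and -61 (Mmp10) from the start, and the TATAAA nearest the start between -47 (Mmp13) and -32 (Mmp3). No gene shown with both motifs exceeded 0.156 FPKM, but the run was chosen as low. Its genes without the AP-1 motif were low as well: Mmp20 reached 0.00244 FPKM, Mmp27 0.00602 FPKM, and Mmp8 and Mmp1b were blank. In the astrocyte-labelled libraries Timp1 was at 6.41 to 10.0 FPKM. Adamts1, not shown, has TATAAA at -70 and no AP-1 motif, and was at 5.19 to 7.08 FPKM there. Whether either motif bears on these levels was not tested.

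The inhibitors were uneven between the cultures. Timp1, the inducible inhibitor, was at 10.0, 6.64 and 6.41 FPKM in the astrocyte-labelled control, 6 h and 12 h libraries, and at 0.0690, 0.0670 and 0.116 FPKM in the neuron-labelled ones. The cultures did not come near each other, with a control difference of 7.19 on the log2 scale. Timp2, which both inhibits Mmp2 and takes part in its activation by Mmp14, was at 4.80, 4.39 and 4.95 FPKM in the astrocyte-labelled libraries and at 1.20, 1.13 and 1.26 FPKM in the neuron-labelled ones, 2.00 apart on the log2 scale between the controls. Timp1 supplied 53.7% to 64.8% of the summed Timp FPKM in the astrocyte-labelled libraries and 5.31% to 8.19% in the neuron-labelled libraries, where Timp2 supplied 89.4% to 92.7%. Timp3, the matrix-bound inhibitor that also blocks Adam17, stayed below 1 FPKM and was named after its values were seen: it was at 0.440 to 0.641 FPKM in the astrocyte-labelled libraries and 0.0194 to 0.0264 FPKM in the neuron-labelled ones. Timp4 reached at most 0.0126 FPKM.

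Summed over each family, Timp FPKM was 11.5 to 15.5 in the astrocyte-labelled libraries and 1.22 to 1.41 in the neuron-labelled ones, while Mmp FPKM was 14.9 to 17.0 in the astrocyte-labelled libraries and 11.3 to 12.8 in the neuron-labelled ones. The Mmp sums were therefore close and the Timp sums far apart. The other protease family was also far apart, with Adamts FPKM summing to 11.7 to 12.7 in the astrocyte-labelled libraries and 1.49 to 2.06 in the neuron-labelled ones. In RefSeq, Timp1, Timp3 and Timp4 each lie within a synapsin gene (Syn1, Syn3 and Syn2). Syn1 was at 0.943, 1.92 and 1.32 FPKM in the astrocyte-labelled control, 6 h and 12 h libraries and at 1.09, 1.33 and 1.59 FPKM in the neuron-labelled ones. Without a stated strand rule, reads of host and inner gene cannot be told apart.

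Among the Adamts proteases, Adamts1, which cuts aggrecan and versican, led in the astrocyte-labelled cultures at 6.13, 7.08 and 5.19 FPKM over control, 6 h and 12 h, and was at 0.434, 0.704 and 0.673 FPKM in the neuron-labelled ones. Adamts10, which acts in microfibril assembly, was at 3.31, 3.02 and 4.09 FPKM in the astrocyte-labelled libraries and at 0.170, 0.214 and 0.198 FPKM in the neuron-labelled ones. Both genes separated the cultures completely, with control differences of 3.82 and 4.29 on the log2 scale. The other 16 Adamts genes stayed below 1 FPKM. Adamts5, another aggrecanase, was among them at 0.314 to 0.433 FPKM in the astrocyte-labelled libraries and 0.0378 to 0.0606 FPKM in the neuron-labelled ones, and was named after its values were seen. Adamtsl4, a fibrillin-binding protein, was at 3.02, 3.75 and 3.05 FPKM in the astrocyte-labelled libraries and at 0.227, 0.173 and 0.143 FPKM in the neuron-labelled ones. Adamtsl5 was at 0.828, 1.21 and 1.07 FPKM in the astrocyte-labelled libraries and at 0.393, 0.348 and 0.558 FPKM in the neuron-labelled ones.

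The cross-linking enzymes showed the widest gap of the 5 families in summed FPKM. Lox was at 8.02, 6.52 and 8.40 FPKM in the astrocyte-labelled control, 6 h and 12 h libraries, and no higher than 0.00739 FPKM in any neuron-labelled library. Loxl1, which cross-links elastin, was at 3.07, 3.61 and 2.99 FPKM in the astrocyte-labelled libraries and at 0.0790, 0.114 and 0.115 FPKM in the neuron-labelled ones. Loxl3 was at 2.67, 3.59 and 2.51 FPKM in the astrocyte-labelled libraries and at 0.197, 0.237 and 0.247 FPKM in the neuron-labelled ones. All 3 genes separated the cultures without overlap. Loxl2, which cross-links basement membrane collagen, was likewise at 1.43, 1.66 and 1.62 FPKM in the astrocyte-labelled libraries and at 0.0271, 0.0671 and 0.0449 FPKM in the neuron-labelled ones. Loxl4 broke the pattern, at 0.320, 0.443 and 0.382 FPKM in the astrocyte-labelled libraries and at 0.360, 0.347 and 1.29 FPKM in the neuron-labelled ones, where the 12 h value alone stood apart. Summed lysyl oxidase FPKM was 15.5, 15.8 and 15.9 in the astrocyte-labelled control, 6 h and 12 h libraries and 0.664, 0.767 and 1.70 in the neuron-labelled ones. Lox gave 41.2% to 52.9% of the sum in the astrocyte-labelled libraries, and Loxl4 45.3% to 75.7% in the neuron-labelled ones. Loxl3 overlaps Htra2 in RefSeq, which was at 6.95 to 7.54 FPKM in the astrocyte-labelled libraries and 4.62 to 5.29 FPKM in the neuron-labelled ones.

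**Figure D2:**
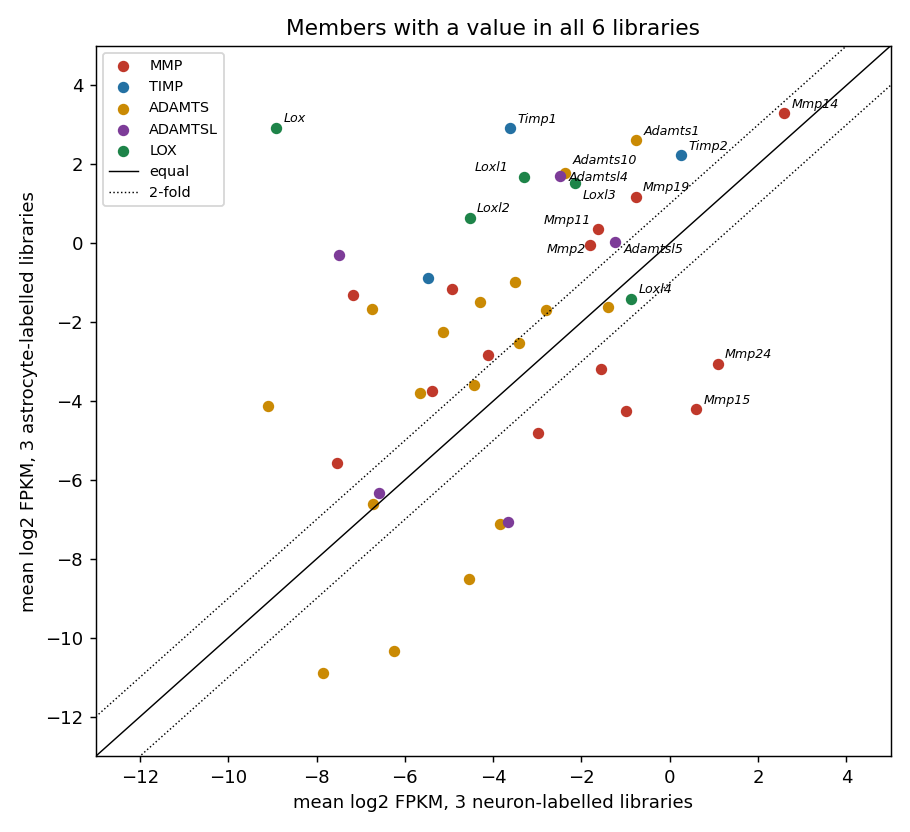
Mean log2 FPKM over the 3 astrocyte-labelled libraries (vertical) against the 3 neuron-labelled libraries (horizontal) for the 44 members with a value in all 6 libraries, coloured by family, with lines of equality and of 2-fold difference. The 17 members that reached 1 FPKM are named: most lie above the lines, with Lox farthest, and Mmp24 and Mmp15 lie below.

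Counted over all members with values and no lower limit, the 3 astrocyte-labelled libraries lay wholly above the 3 neuron-labelled ones for 28 of 44 members, against 25.8% of all 19471 genes with a value in every library. They lay wholly below for 10 of 44, against 36.7% of all genes, and 6 overlapped. The 3 libraries of a culture are different conditions and not replicates. With the 1 FPKM limit in any library, the counts were 14 and 2 of 17, against 30.6% and 41.6% of 7754 genes. Apart from Mmp14 and Timp2, each of these 17 reached 1 FPKM in a single culture, so that the opposite order was excluded by entry. Between the controls by the 2-fold rule, 12 of 15 members that entered were higher in the astrocyte-labelled library and 2 were lower, against 18.7% and 21.9% of 7146 genes. Of these 15, 11 entered through the astrocyte-labelled control alone and 2 through the neuron-labelled control alone, and members that entered only through the culture where they are high had to differ. With no lower limit 29 of 47 were higher and 10 lower, against 21.4% and 25.2% of 20834 genes, with a median of 2.00 for the members and -0.10 for all genes. The smooth muscle and fibroblast marker sums given above were also higher in the astrocyte-labelled libraries, and their part in these counts was not tested.

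Lists of related matrix genes were compared in the same controls. The share of all genes past 2-fold there was 18.7% higher and 21.9% lower. Of collagen processing enzymes 11 entered, 8 of them at 1 FPKM in the astrocyte-labelled control alone, and of elastic fibre and other matrix genes 8 entered, 7 of them in that way, so that their direction was largely fixed by entry. The 3 collagen processing enzymes and the 1 elastic fibre gene that reached 1 FPKM in both controls were higher in the astrocyte-labelled one. Pcolce, which speeds procollagen trimming, was at 22.5 FPKM in astrocyte-labelled control cells, against 0.0227 FPKM in neuron-labelled ones, and Mfap4, a microfibril protein, at 29.3 FPKM, against 0.358 FPKM in neuron-labelled ones. Of plasminogen activation genes 4 were higher and 1 lower of 5, and each had entered through 1 control alone. The lower one was Serpine2, a serine protease inhibitor, at 0.552 FPKM in astrocyte-labelled control cells, against 2.19 FPKM in neuron-labelled ones. Of Mmp activators and other inhibitors 3 were higher and 2 lower of 6, and of the 4 at 1 FPKM in both controls 2 were higher and 1 lower. Thbs1, a matrix protein that binds Mmp2 and Mmp9, was at 660 FPKM in astrocyte-labelled control cells, against 1.06 FPKM in neuron-labelled ones. The cysteine protease inhibitor Cst3 was lower, at 24.2 FPKM in astrocyte-labelled control cells, against 126 FPKM in neuron-labelled ones. Of lecticans and hyaluronan genes 2 were higher and 3 lower of 5, with 1 at 1 FPKM in both controls, and the lectican Bcan, a substrate of Adamts proteases, was at 0.0200 FPKM in astrocyte-labelled control cells, against 35.6 FPKM in neuron-labelled ones. Of ADAM membrane proteases 1 of 2, Adam19, was higher and had entered through the astrocyte-labelled control alone.

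The next comparison asked which members differed after insulin in the astrocyte-labelled cultures. Mmp11 fell at 12 h, no other of the 14 members that entered reached 2-fold at either time, and Timp1 was lower at both times without reaching it. Mmp11, stromelysin-3, a secreted protease that is activated inside the cell by furin, was at 1.94, 1.10 and 0.966 FPKM over control, 6 h and 12 h. Both insulin libraries lay below the control, by -0.81 at 6 h and -1.01 at 12 h on the log2 scale, the second just past the limit. On a log2(FPKM + 1) scale the 12 h difference was -0.58, no longer 2-fold. Mmp11 was below 1 FPKM at 12 h and entered that comparison through the control alone, so its direction there was fixed by entry. Of the 6221 genes compared at 12 h, 1.53% differed by as much in either direction. Mmp11 overlaps Chchd10 in RefSeq, which was at 0.316, 0.462 and 0.224 FPKM in these libraries and at 22.2 to 29.8 FPKM in the neuron-labelled ones, and without a stated strand rule the reads of both genes cannot be told apart.

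Timp1 differed by -0.60 at 6 h and -0.65 at 12 h from the values given above, and 7.11% of 6206 genes and 4.65% of 6221 genes differed by as much in either direction. Mmp14 differed by 0.31 and 0.30, amounts equalled or passed by 27.2% and 26.3% of genes. The ratio of Mmp14 FPKM to Timp1 FPKM was 0.849, 1.59 and 1.64 in the control, 6 h and 12 h libraries, a pairing chosen after the values were seen. In the neuron-labelled libraries that ratio was 81.9, 88.5 and 56.7, with Timp1 at 0.116 FPKM or less. Timp2 differed by -0.13 and 0.04, and Timp3, below 1 FPKM, by -0.54 and -0.16.

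**Figure D3:**
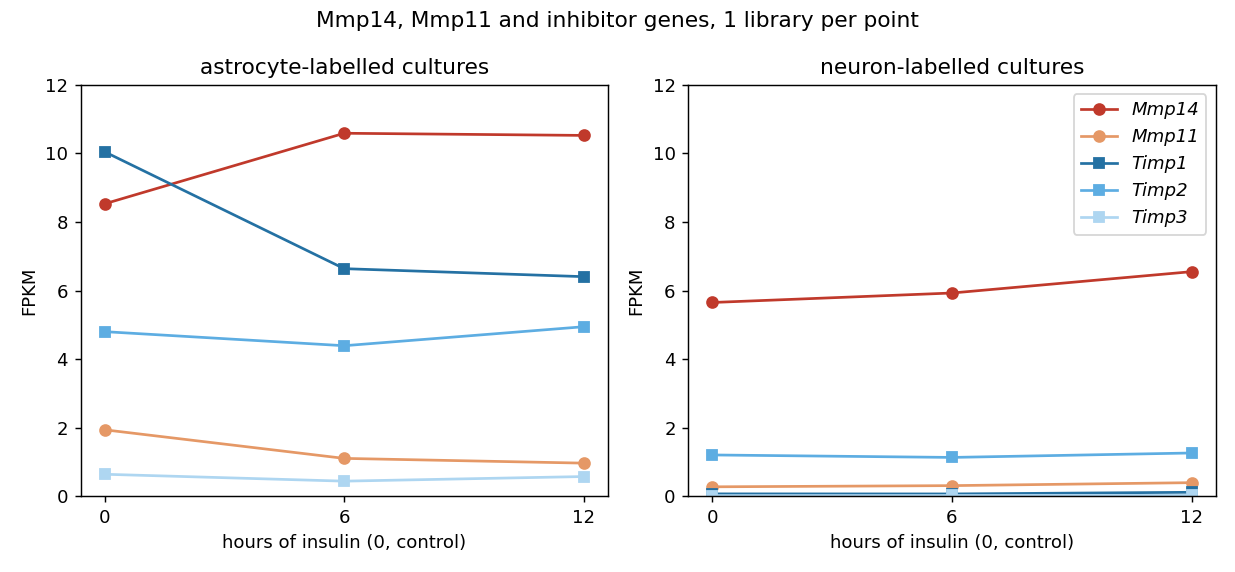
FPKM of Mmp14, Mmp11, Timp1, Timp2 and Timp3 by hours of insulin (0 is the control), astrocyte-labelled cultures left and neuron-labelled cultures right, 1 library per point and no error bars. In the astrocyte-labelled cultures Timp1 was above Mmp14 in the control (10.0 and 8.53 FPKM) and below it at 6 h (6.64 and 10.6 FPKM) and 12 h (6.41 and 10.5 FPKM).

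The remaining members kept within 2-fold, and several had opposite signs at the 2 times. Adamts1 differed by 0.21 at 6 h and -0.24 at 12 h, Adamts10 by -0.14 and 0.31, and Lox by -0.30 and 0.07. Loxl3 differed by 0.43 and -0.09, Loxl1 by 0.23 and -0.04, and Mmp2 by 0.11 and -0.31. Mmp19 (0.38 and 0.07), Adamtsl5 (0.55 and 0.37), Adamtsl4 (0.31 and 0.01) and Loxl2 (0.22 and 0.18) were above 0 at both times. Over the 14 members that entered, the count was 0 higher and 0 lower at 6 h, beside 1.05% and 0.886% of all genes, and 0 higher and 1 lower at 12 h, beside 0.611% and 0.916%. The members' medians were 0.21 at 6 h and 0.03 at 12 h, and those of all genes 0.09 and 0.10. These counts are near the background. With no lower limit 6 of 47 members were higher and 3 lower at 6 h, beside 9.12% and 4.24% of all genes, and 3 of 46 were higher and 3 lower at 12 h, beside 9% and 4.32%. Centred on that median, the all-gene split was 41 higher and 66 lower at 6 h (65 and 55 uncentred) and 28 and 71 at 12 h (38 and 57 uncentred), and the members' counts did not change.

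No listed relative reached 2-fold in these cultures either, with 0 called of 34 entries at 6 h and 0 of 35 at 12 h over the 6 lists, beside 1.05% of all genes higher and 0.886% lower at 6 h and 0.611% and 0.916% at 12 h. Plau, the urokinase that starts plasmin formation, chosen after its values were seen, was at 4.33, 7.67 and 5.94 FPKM over control, 6 h and 12 h, a difference of 0.83 at 6 h. Serpinh1, the collagen chaperone, was at 72.5, 91.8 and 107 FPKM. The median of the collagen processing list was 0.08 at 6 h and 0.18 at 12 h over 12 genes, the elastic fibre list 0.19 over 8 and -0.04 over 9, and the Mmp activator list -0.08 and 0.04 over 5. The plasminogen list had medians of 0.31 and 0.30 over 4 genes, the lectican list 0.30 and 0.23 over 3, and the ADAM list 0.13 and 0.30 over 2.

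**Figure D4:**
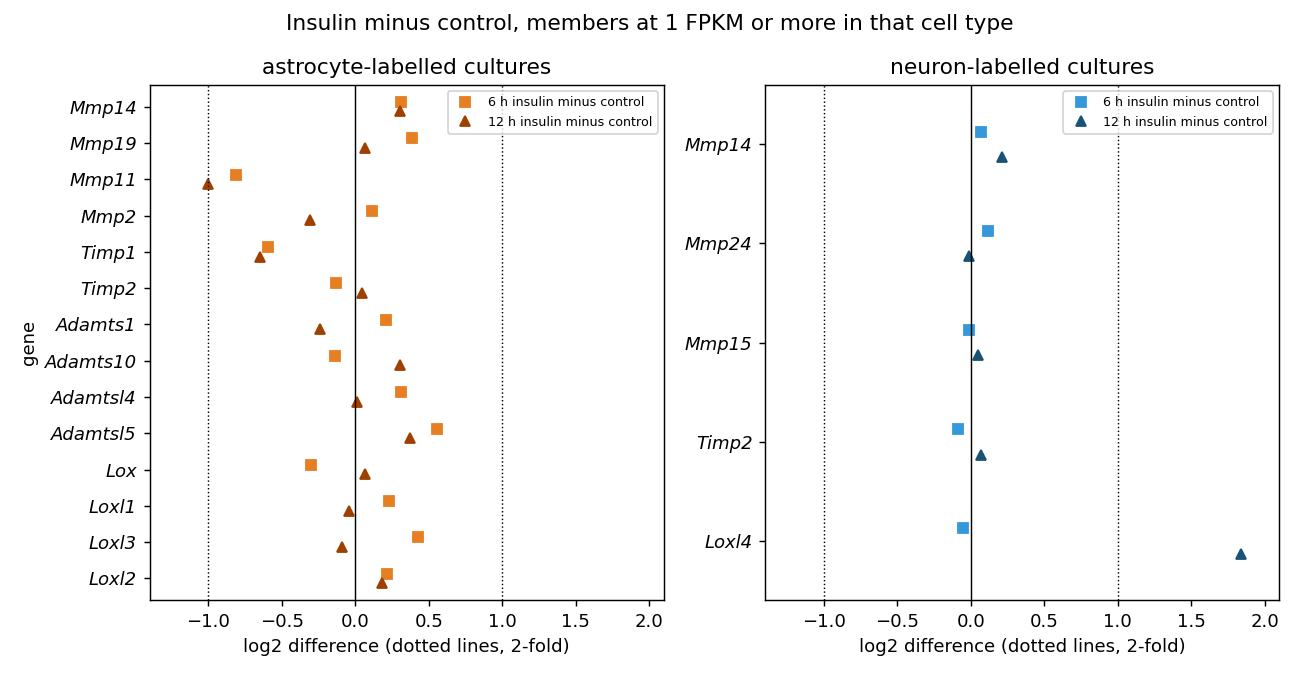
Log2 difference of each insulin library from the control of the same culture (squares 6 h, triangles 12 h, 1 library each) for members at 1 FPKM or more in that culture, with dotted lines at 2-fold. Mmp11 at 12 h in the astrocyte-labelled cultures (-1.01) and Loxl4 at 12 h in the neuron-labelled cultures (1.84) are the points past the lines. The 6 h and 12 h differences of a culture share its control library.

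In the neuron-labelled cultures Loxl4 rose at 12 h and the abundant members moved little. Loxl4, a lysyl oxidase of matrix collagens, was at 0.360 FPKM in the control, 0.347 FPKM at 6 h and 1.29 FPKM at 12 h. The 6 h library was level with the control, at -0.05 on the log2 scale, and the 12 h library was 1.84 above it. Of 6641 genes compared, 0.708% differed by as much in either direction, and on a log2(FPKM + 1) scale the difference was 0.75. Mmp14 differed by 0.07 and 0.21 at 6 h and 12 h, Mmp24 by 0.11 and -0.01, Mmp15 by -0.01 and 0.05 and Timp2 by -0.09 and 0.07. In the same libraries Mmp11 was at 0.275, 0.310 and 0.396 FPKM, with differences of 0.17 and 0.53. Of the 4 members that entered at 6 h 0 were called, beside 1.6% of all genes higher and 1.29% lower. Of the 5 at 12 h 1 was higher and 0 were lower, beside 2.39% and 1.45%. That 1, Loxl4, was below 1 FPKM in the control and entered through the 12 h library alone, so its direction was fixed by entry. The members' medians were 0.03 and 0.07, below the all-gene medians of 0.14 and 0.14. Centred on these, the all-gene split was 71 higher and 106 lower at 6 h (106 and 85 uncentred) and 109 and 133 at 12 h (159 and 96 uncentred), and the members' counts did not change.

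Most members of the neuron-labelled cultures lay below 1 FPKM, and there the median difference after insulin was above 0 for members and for all genes. Among those below 1 FPKM in both libraries it was 0.48 for 45 members and 0.41 for all genes at 6 h, and 0.62 for 43 members and 0.37 for all genes at 12 h. With no lower limit the medians were 0.43 and 0.60 for members and 0.29 and 0.28 for all genes, and 9 of 49 were at least 2-fold higher at 6 h and 0 lower, beside 13.4% and 3.85% of all genes. At 12 h 11 of 48, Loxl4 among them, were higher and 0 lower, beside 14.3% and 4.17%. Most of these members are scarce, and among genes below 1 FPKM in both libraries the shares were closer. There 9 of 45 members were higher at 6 h and 0 lower, beside 18.3% and 4.91% of all genes. At 12 h 10 of 43 were higher and 0 lower, beside 19.3% and 5.3%. Lox was at 0.000685, 0.00177 and 0.00739 FPKM over control, 6 h and 12 h, and Mmp9, gelatinase B, chosen after its values were seen, at 0.00669, 0.0506 and 0.0397 FPKM. The depth behind such levels is unknown, and no size is read from them. The 6 h and 12 h insulin libraries also had 25510 and 25528 symbols with a value, against 23927 in the control, and the part of this in the low values was not tested.

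Of the related genes, 2 passed 2-fold in the same cultures, both at 12 h. S100a10, a subunit of a plasminogen receptor, was at 0.490, 0.907 and 1.73 FPKM over control, 6 h and 12 h and at 12 h rose by 1.82 on the log2 scale. The hyaluronan receptor gene Cd44 was at 0.632, 1.08 and 1.68 FPKM, and at 12 h it rose by 1.41. These were the listed relatives that passed the rule over the 6 lists, and none was lower. The count was 0 of 17 entries at 6 h, beside 1.6% of all genes higher and 1.29% lower. At 12 h it was 2 of 18, beside 2.39% and 1.45%. Both genes were below 1 FPKM in the control and entered at 12 h through the insulin library alone, so their direction was fixed by entry. The smooth muscle marker sum was 4.52, 6.72 and 10.6 FPKM, of which Tagln gave 4.35, 6.53 and 10.3 FPKM. Acta2 was at 0.00209, 0.00679 and 0.0149 FPKM and Pdgfrb at 0.157, 0.183 and 0.216 FPKM. Myh11 of the same list was lower at 12 h than in the control and blank at 6 h, and Rgs5 was blank in the control and at 12 h. The fibroblast marker sum was 2.47, 2.44 and 2.28 FPKM. Whether the cells that carry these transcripts have a part in the Loxl4, Lox or S100a10 values was not tested. The list medians at 6 h and 12 h were 0.16 and 0.31 for collagen processing over 4 genes, -0.05 and 0.02 for lecticans over 4, -0.18 and -0.34 for Mmp activators over 5 and 0.26 and 0.55 for elastic fibre genes over 2. The plasminogen list gave 0.10 over 1 gene and 0.84 over 2, and the ADAM list 0.15 and 0.36 over 1.

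**Figure D5:**
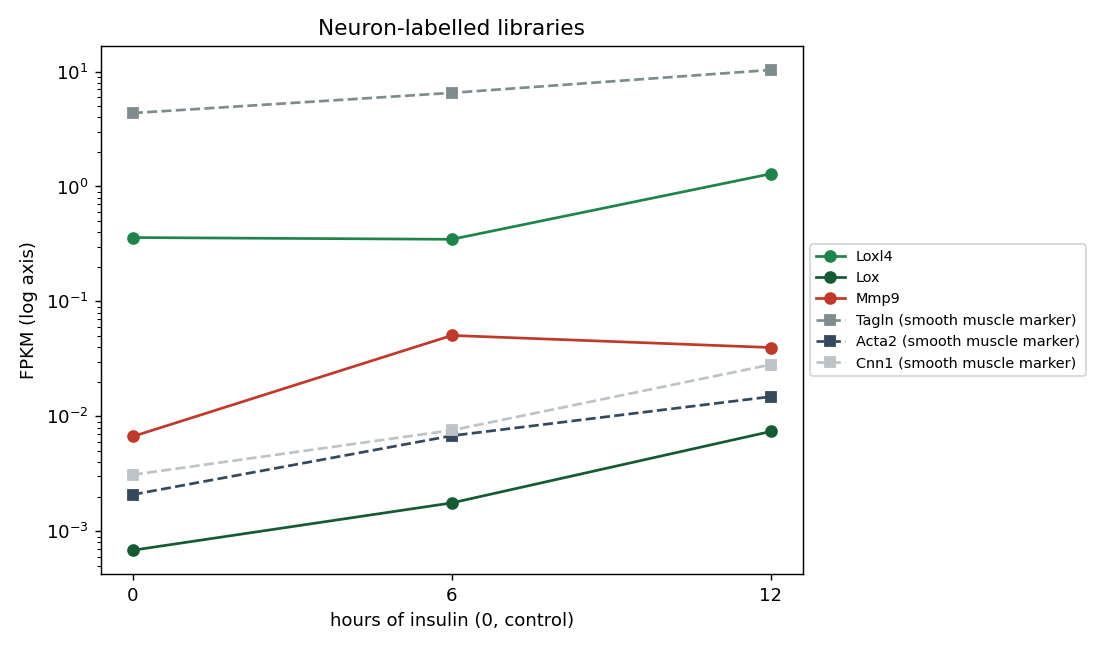
FPKM (log axis) of Loxl4, Lox and Mmp9 (circles, solid) and of the smooth muscle markers Tagln, Acta2 and Cnn1 (squares, dashed) by hours of insulin in the neuron-labelled libraries, 1 library per point. Loxl4 was at 1.29 FPKM at 12 h, Lox stayed at 0.00739 FPKM or less, and Tagln was at 4.35, 6.53 and 10.3 FPKM. Pdgfrb, Myh11 and Rgs5 of the same marker list are not drawn. Pdgfrb was at 0.157, 0.183 and 0.216 FPKM over control, 6 h and 12 h. Myh11 was at 0.00055 FPKM in the control, blank at 6 h and at 0.000162 FPKM at 12 h, and Rgs5 was blank in the control and at 12 h.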

How the data were processed

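The 6 libraries were made from rRNA-depleted total RNA, with a kit that keeps strand, per the labels' protocols. The authors deposited 1 table of log2 FPKM, quantile-normalised over the libraries, with 37185 rows and 37183 symbols; the FPKM, log and quantile steps are given in the deposited table's name. Base 2 was settled from the values, since Rn45s (8.679 kb) would otherwise exceed the unit's library total. Partek 6.5, bcl2fastq 2.17.1.14 and the build Rnor 6.0 stand in the submitters' processing notes; aligner and annotation were not given in the sources used here. Depth is unknown, so no counting interval is given.

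Columns were matched through the description labels, with 0 left unused. Of repeated symbols the row of higher mean was kept, blanks stayed blank, and differences were taken as described, with Python 3.11.15, numpy 2.4.6 and pandas 2.3.3 and the call rule checked on simulated data. RefSeq tables (GRCr8) held 54 of the 56 symbols and served for neighbours, overlaps and upstream sequence. Members and lists were chosen with earlier results of these data known. Named are members at 1 FPKM or more, relatives past 2-fold, the 3 highest per list and markers. Alternatives were the lower limit, the pseudocount, centring, blanks set to the library's lowest value and, added after seeing the data, other library pairs.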

Additional observations from a re-analysis of the deposited data

Results flagged for a closer look

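In 5 of the 44 members with all values, both insulin libraries lay above control in one culture and below it in the other. The share of all genes with such opposite signs was not counted, so no excess is read from these 5. The difference between cultures was not tested, as each group has 1 library. For Mmp11 the insulin difference was -0.81 at 6 h and -1.01 at 12 h in the astrocyte-labelled cultures, and 0.17 and 0.53 in the neuron-labelled cultures, so the astrocyte-labelled change minus the neuron-labelled one was -0.98 at 6 h and -1.53 at 12 h. For Adamtsl4 it was 0.31 and 0.01 in the astrocyte-labelled cultures and -0.39 and -0.67 in the neuron-labelled cultures, 0.70 and 0.68 apart. The astrocyte-labelled Adamtsl4 value at 12 h lies below the all-gene median of 0.10. Chchd10, which overlaps Mmp11, was at 22.2, 26.1 and 29.8 FPKM in the neuron-labelled control, 6 h and 12 h libraries, and its part in the Mmp11 values was not tested. The neuron-labelled values of both genes were between 0.143 and 0.396 FPKM. The other 3 stayed below 1 FPKM in every library. Timp3 differed by -0.54 at 6 h and -0.16 at 12 h in the astrocyte-labelled cultures and by 0.19 and 0.45 in the neuron-labelled cultures, -0.73 and -0.61 apart. Adamts5 differed by -0.46 and -0.40 in the astrocyte-labelled cultures and by 0.58 and 0.68 in the neuron-labelled cultures, -1.05 and -1.08 apart. Adamts20, at no more than 0.0200 FPKM, differed by -1.52 and -1.56 in the astrocyte-labelled cultures and by 1.23 and 0.65 in the neuron-labelled cultures, -2.76 and -2.21 apart. These are descriptions of single libraries.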

How the results depend on the processing

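No paired analysis was possible because each group has 1 library, and no replicate could be left out. Centring on the all-gene median and setting blanks to the library's lowest value changed no member count by over 1.5 times. With no lower limit the members higher and lower were 6 and 3 at 6 h and 3 and 3 at 12 h (median 0.21) in the astrocyte-labelled cultures. In the neuron-labelled cultures 9 were higher at 6 h (median 0.43) and 11 at 12 h (median 0.60). Between the controls 29 were higher and 10 lower (median 2.00), and over all 6 libraries 28 and 10 did not overlap. With a limit of 5 FPKM 4 members were left in the astrocyte-labelled cultures, with a median of -0.045 at 6 h and 0 lower at 12 h, and 0 were higher at 12 h in the neuron-labelled cultures. Between the controls 3 were then higher and 0 lower (median 5.50), where 445 of all genes were higher and 532 lower. The 3 entered through the astrocyte-labelled control alone, so their direction was fixed by entry. Over all 6 libraries 4 and 0 members did not overlap at that limit. The share of all genes was not counted there, so no excess is read from the 4. On the log2(FPKM + 1) scale Mmp11 and Loxl4 were no longer 2-fold, leaving 0 members called in either insulin comparison at 12 h, Mmp2 differed by 0.67 between the controls, and the control median was 1.40. In the pairs added after seeing the data the median of the members, astrocyte-labelled minus neuron-labelled, was 2.75 at 6 h and 2.95 at 12 h. Over all genes the 10 counts were 38 to 1565 as reported, 875 to 5248 with no lower limit, 8 to 532 with a limit of 5 FPKM and 8 to 984 on the log2(FPKM + 1) scale, and 65 became 41 on centring at 6 h in the astrocyte-labelled cultures. Most members are scarce, so the lower limit moved most counts, and depth is unknown.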
